A study of Saccharomyces cerevisiae with 12 samples.

Results

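The large subunit of the yeast ribosome holds many proteins, and most of them are encoded by a pair of near-identical genes, called copy A and copy B. Examined here were the 60 genes of 30 such pairs of Saccharomyces cerevisiae: the A and B copies of RPL1, RPL4, RPL6 to RPL9, RPL11 to RPL24, RPL26, RPL27, RPL31, RPL33 to RPL37, RPL42 and RPL43. They were taken by their systematic names from a table of 6825 identifiers. No measured value enters that rule, but the set was chosen with earlier results of these data known. All 60 were detected in all 12 samples. PolyA RNA of exponentially growing yeast had been sequenced as 75-base single-end reads, and the values are TPM, a level of transcripts corrected for transcript length and scaled to a common total in each sample, so that copies of a pair can be compared with each other.

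The 4 groups hold 3 samples each, which the labels call biological triplicates, and each group is a single strain. In the deletion experiment, WT cells were DF5a with an integrated YIplac211-MED11::URA3 (strain MH1047), and euc1∆ cells (MH1074) carried in addition ymr111c::natNT2, which removes EUC1 (YMR111C), the gene of a protein that resembles transcription factors. Both were cultured in YP with glucose to mid-log phase. In the overexpression experiment, both strains were W303a RAD5 with the same ymr111c::natNT2 deletion and a URA3 plasmid integrated, which brought EUC1 back either under its own promoter (YIplac211-pEUC1-EUC1::URA3, MH1134, the control) or under the galactose-inducible GAL promoter (YIplac211-pGAL-EUC1::URA3, MH1135, pGAL-EUC1). Both were grown in YP with raffinose to an OD of 0.5, and 2% galactose was then added for 3 h. Also the control therefore had galactose, and no sample of the overexpression experiment had an untouched EUC1 locus. Glucose and galactose samples below are short names for the samples of the deletion and the overexpression experiment. These differ in strain background and integrated plasmid as well as in medium. The p-values below measure the spread between cultures of 1 strain per group.

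Ribosomal protein genes are among the most transcribed genes of growing yeast, and their promoters are bound by Rap1 with the activators Fhl1 and Ifh1, which answer to nutrients through TOR and protein kinase A. Most A and B copies stem from a duplication of the whole genome. Many pairs still make the same protein, whereas introns, promoters and untranslated regions of the copies have diverged. The transcripts of both copies together supply a subunit protein, and each subunit takes up its proteins in equal number. Protein amounts were not measured here.

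The targeted gene followed the labels, with EUC1 at 9.56, 15.96 and 13.02 TPM in WT, 0, 0 and 0.09 TPM in euc1∆, 50.62, 30.75 and 31.57 TPM in the control and 1985, 1942 and 2035 TPM in pGAL-EUC1. Summed TPM of 4 MATa genes (MFA1, MFA2, STE2 and BAR1) lay between 925 and 1583 and that of 3 MATalpha genes between 10.7 and 31.0 in all samples. The 4 galactose genes GAL1, GAL7, GAL10 and GAL2 summed to 11.3 to 17.4 TPM in the glucose cultures and to 12956 to 14160 TPM in the galactose cultures, with overlapping ranges of control (13308 to 14010 TPM) and pGAL-EUC1. The number of reads behind a value is unknown, since TPM keeps no depth.

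Copies of a pair can be told apart only by reads that cross a difference between them. The 2 copies encode the same protein in 9 of the 30 pairs (among them RPL1, RPL12, RPL19, RPL20, RPL23, RPL35, RPL42 and RPL43) and differ at 1 to 5 residues in 16 others. RPL22, a protein that yeast can grow without, is the least alike, with 84.4% identity and 19 different residues, followed by RPL16 with 89.9% identity. Coding sequences were 78.9% to 99.4% identical (median 93.2%). Of all windows of 75 coding bases, the read length, the share found nowhere else in the genome was lowest in RPL35 (21.1% in the copy with fewer), RPL1 (28.4%), RPL4 (37.8%), RPL11 (44.1%) and RPL7 (52.3%), and its median over the 60 members was 97.9%. RSEM divides reads that fit both copies, so the split within those pairs is the least certain, whereas the sum of A and B does not depend on that division. The reference is S288C, the strains were DF5 and W303, and the part of strain differences in the split was not tested. Introns are annotated in both copies of 22 pairs and in no copy of the other 8. Only RPL7A and RPL7B overlap another annotated gene, the snoRNA genes SNR39 and SNR59 in their introns, on the same strand.

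The last 75 coding bases of 6 pairs that recur below are printed from the R64 genome, 5′ to 3′ on the strand of the gene, with capitals at the bases that differ between the copies. RPL9 and RPL15 differ at 10 of these bases, RPL4 at 6, RPL7 at 5, RPL8 at 4 and RPL14 at none.
RPL9A, chrVII:227754-227828 (-): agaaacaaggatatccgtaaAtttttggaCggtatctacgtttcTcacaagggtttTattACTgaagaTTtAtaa
RPL9B, chrXIV:500182-500256 (+): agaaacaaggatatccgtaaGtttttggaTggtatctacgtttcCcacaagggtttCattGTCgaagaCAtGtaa
RPL15A, chrXII:201976-202050 (-): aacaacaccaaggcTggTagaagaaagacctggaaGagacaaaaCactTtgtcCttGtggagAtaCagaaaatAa
RPL15B, chrXIII:509734-509808 (-): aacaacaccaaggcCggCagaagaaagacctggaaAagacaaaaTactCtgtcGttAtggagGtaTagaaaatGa
RPL4A, chrII:301180-301254 (+): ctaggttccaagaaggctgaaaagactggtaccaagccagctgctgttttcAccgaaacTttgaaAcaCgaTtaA
RPL4B, chrIV:472867-472941 (+): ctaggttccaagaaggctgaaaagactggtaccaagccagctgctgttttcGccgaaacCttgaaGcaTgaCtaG
RPL7A, chrVII:364335-364409 (-): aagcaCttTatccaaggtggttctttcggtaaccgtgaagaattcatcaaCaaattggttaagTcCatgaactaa
RPL7B, chrXVI:174628-174702 (+): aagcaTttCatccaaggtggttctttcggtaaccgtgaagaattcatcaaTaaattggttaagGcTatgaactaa
RPL8A, chrVIII:35255-35329 (-): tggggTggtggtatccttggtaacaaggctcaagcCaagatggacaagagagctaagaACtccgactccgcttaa
RPL8B, chrXII:47859-47933 (-): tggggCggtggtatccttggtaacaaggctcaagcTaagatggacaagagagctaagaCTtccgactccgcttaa
RPL14A, chrXI:432646-432720 (+): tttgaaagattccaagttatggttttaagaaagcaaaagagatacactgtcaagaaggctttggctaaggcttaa
RPL14B, chrVIII:105017-105091 (+): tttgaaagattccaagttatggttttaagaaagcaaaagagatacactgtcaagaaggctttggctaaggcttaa
A read lying wholly in this part of RPL14 cannot be assigned to a copy by its letters, while any read covering the end of RPL9 or RPL15 crosses several differing bases. Over the whole coding sequence, 69.4% of the RPL14 windows and 92.8% of the RPL9 windows were still found nowhere else.

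The promoters were searched for 3 motifs on both strands within 500 bases before the start codon. The Rap1 motif ACCCNNACA was present in 29 of the 60 members (48.3%), against 5.48% of the 6002 promoters of that length in the genome (329). Both copies held it in 8 pairs, a single copy in 13 and neither in 9. In those 13 pairs, the copy with the motif was the more abundant one in 7. The Abf1 motif (TCA and ACG with 6 free bases between) was found in 12 members (20%, against 22.7% of all promoters), and the Reb1 motif TTACCCG in 3 (5%, against 10.1%). A match of letters is no evidence of binding. The 5 sites below are examples from the 13 pairs with a Rap1 motif in a single copy, taken from pairs whose copies are set apart further on. Only the copy shown has the motif, printed in capitals on the strand of the gene. Among the pairs not printed, RPL27 and RPL43 have it before copy B only.
RPL7A, chrVII:366231-366255 (-): atataaacACCCACACAtatctata
RPL8A, chrVIII:36248-36272 (-): aagaaaacACCCAAACAtatctagg
RPL9A, chrVII:228623-228647 (-): tccagaaaTGTTTGGGTttattttt
RPL14A, chrXI:431488-431512 (+): gcaaatacACCCATACActattttt
RPL22B, chrVI:65161-65185 (-): atgtcaacACCCGTACAtattcaga
In RPL9A the motif lies on the other strand, so that its complement is read here. The motifs begin 251, 239, 310, 410 and 245 bases before the start codon of RPL7A, RPL8A, RPL9A, RPL14A and RPL22B.

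The 60 members together took 14.4% to 15.6% of all TPM in WT. Their sum was 154516, 142275 and 143292 in WT (mean 146694, SD 6793), 141499, 147743 and 147871 in euc1∆ (145704, SD 3643), 88160, 88556 and 86392 in the control (87703, SD 1152) and 82529, 86010 and 81838 in pGAL-EUC1 (83459, SD 2236). The 2 glucose groups overlap, each sample with galactose is far below each sample with glucose, and the 3 pGAL-EUC1 samples are below the 3 control samples. The glucose and galactose samples differ also in strain background, integrated plasmid and experiment, and these parts cannot be told apart. The sum in euc1∆ was 0.993 times that in WT (exact permutation p = 0.8, two-sided), the sum in pGAL-EUC1 was 0.952 times that in the control (p = 0.1) and that in the control 0.598 times that in WT (p = 0.1). Since TPM is relative, less member RNA in a cell and more of other RNA cannot be told apart. With 3 samples against 3, 0.1 is the smallest p this exact test allows. The duplicated small subunit genes, 48 genes in 24 pairs, had ratios of 0.973, 0.947 and 0.63, and the 10 large subunit genes without a second copy had 0.918 (no overlap between euc1∆ and WT, exact permutation p = 0.1), 0.928 and 0.687.

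**Figure D1:**
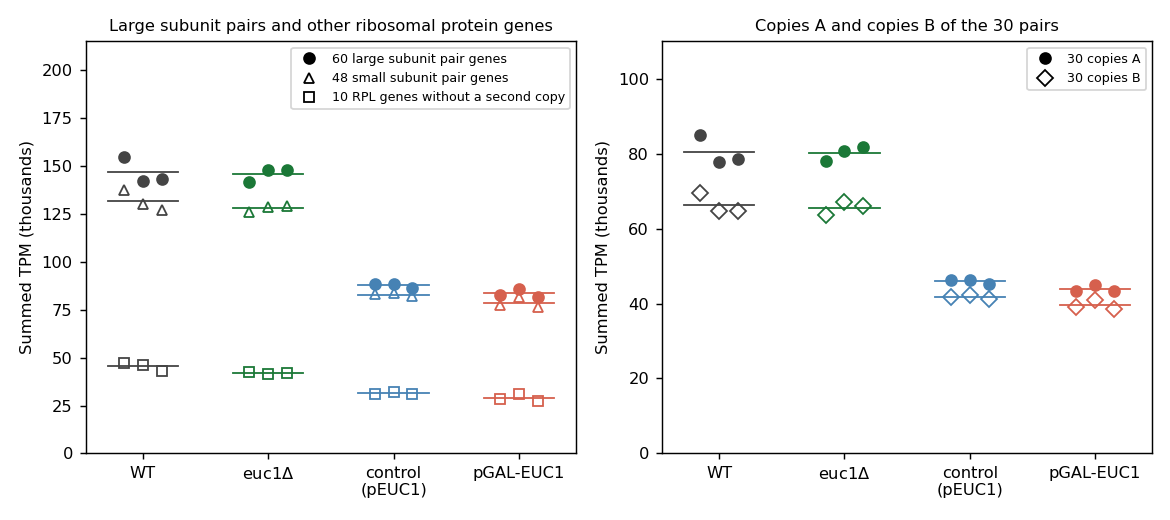
Summed TPM in each of the 12 samples, by group, for the 60 large subunit pair genes, the 48 small subunit pair genes and the 10 large subunit genes without a second copy (left), and for copies A and B of the 30 pairs (right). Each point is a sample and each line a group mean. The pair genes of the large subunit summed to between 141499 and 154516 TPM in the 6 glucose samples and to between 81838 and 88556 TPM in the 6 galactose samples. Strain background and experiment differ along with the medium.

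Single members spanned a wide range. In every group the lowest was RPL15B, with means of 57.2 TPM in WT and 61.7 TPM in pGAL-EUC1, and the highest was RPL27A, with 5831 and 2792 TPM. The median member stood at 2388 TPM in WT, 2395 in euc1∆, 1322 in the control and 1304 in pGAL-EUC1, while the median over all genes was 26.1, 26.1, 37.6 and 40.1 TPM. Of the 100 most abundant transcripts, members were 26 in WT and 25 in euc1∆, but 10 in the control and 11 in pGAL-EUC1. Among the first 200 they were 55, 55, 48 and 48. Replicates lay close together, with a median coefficient of variation of 5.50% in WT, 4.86% in euc1∆, 2.86% in the control and 2.85% in pGAL-EUC1.

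Within pairs, the copies were seldom equal, and which copy led was mostly the same throughout. Copy A exceeded copy B in all 12 samples in 13 pairs, copy B exceeded copy A in all 12 in 12 pairs, and the order varied in 5 (RPL4, RPL11, RPL20, RPL24 and RPL43). The most uneven pair was RPL15, a protein embedded in the rRNA of the subunit core. RPL15A (YLR029C, chromosome XII, 201976 to 202590, minus strand) stood at 5031, 4828 and 5015 TPM in WT, 5112, 5683 and 5536 in euc1∆, 2703, 2606 and 2556 in the control and 2277, 2318 and 2311 in pGAL-EUC1. RPL15B (YMR121C, chromosome XIII, 509734 to 510348, minus strand) stood at 57.1, 59.3 and 55.0 TPM in WT, 56.8, 46.0 and 60.2 in euc1∆, 62.2, 59.8 and 53.4 in the control and 66.2, 61.3 and 57.6 in pGAL-EUC1. The ranges of RPL15A in the glucose and the galactose samples lie far apart, while those of RPL15B overlap in the 4 groups. The mean log2 ratio of A to B over the 12 samples was 5.95 (range 5.10 to 6.95), a 61.9-fold excess of A.

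RPL22 came next with a mean log2 ratio of 3.03 (8.16-fold). Its protein can bind the unspliced RPL22B transcript and hold back its splicing. RPL22A (YLR061W, chromosome XII, 263194 to 263948, plus strand) was measured at 3027, 2685 and 2712 TPM in WT, 2604, 2736 and 2948 in euc1∆, 1417, 1437 and 1441 in the control and 1292, 1343 and 1330.2 in pGAL-EUC1. RPL22B (YFL034C-A, chromosome VI, 64243 to 64932, minus strand) was measured at 244, 264 and 239 TPM in WT, 241, 242 and 245 in euc1∆, 295, 267 and 274 in the control and 202, 195 and 193 in pGAL-EUC1. RPL22B was highest in the control and lowest in pGAL-EUC1, and no pGAL-EUC1 sample reached any other sample. RPL7, an rRNA-binding protein whose genes host a snoRNA each, had a ratio of 2.51 (5.69-fold). RPL7A (YGL076C, chromosome VII, 364335 to 365996, minus strand) had 2364, 2509.6 and 2806 TPM in WT, 2725, 2380.2 and 2588 in euc1∆, 1555, 1499.7 and 1495 in the control and 1494, 1536 and 1563 in pGAL-EUC1. RPL7B (YPL198W, chromosome XVI, 173152 to 174702, plus strand) had 372, 343 and 379 TPM in WT, 353, 374 and 377 in euc1∆, 389.8, 388 and 351 in the control and 299.8, 272 and 289 in pGAL-EUC1. Like RPL22B, RPL7B was lowest in the 3 pGAL-EUC1 samples, without overlap with the other 9.

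RPL27 was also among the 5 most uneven pairs, with a ratio of 1.43 (2.70-fold). RPL27A (YHR010W, chromosome VIII, 126521 to 127492, plus strand) was at 6722, 5234 and 5538 TPM in WT, 5025, 6647 and 5591 in euc1∆, 2865, 2988 and 2899.7 in the control and 2809, 2897 and 2672 in pGAL-EUC1. RPL27B (YDR471W, chromosome IV, 1401770 to 1402564, plus strand) was at 2104, 1773 and 1712 TPM in WT, 1739, 1849 and 1826 in euc1∆, 1218, 1288 and 1231 in the control and 1207, 1259 and 1189 in pGAL-EUC1. The first WT sample carried the highest value of both RPL27 copies. In the opposite direction, copy B led most in RPL8 (-1.38) and RPL36 (-1.33).

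The most even pairs were RPL24, RPL20 and RPL43. RPL24 is a late-joining protein that forms a bridge to the small subunit. RPL24A (YGL031C, chromosome VII, 437467 to 437934, minus strand) had 2703, 2521 and 2296 TPM in WT, 2385, 2496 and 2578 in euc1∆, 1710.2, 1687 and 1599 in the control and 1550.3, 1602 and 1541 in pGAL-EUC1. RPL24B (YGR148C, chromosome VII, 787312 to 787779, minus strand) had 3241, 3048 and 2929.9 TPM in WT, 3079, 3056 and 3015 in euc1∆, 1678, 1629.8 and 1599 in the control and 1569.7, 1634 and 1501 in pGAL-EUC1. Copy B of RPL24 led in all 6 glucose samples, and the copies were close to equal in the galactose samples. RPL20A (YMR242C, chromosome XIII, 753225 to 754220, minus strand) had 2429, 2303 and 2399 TPM in WT, 2399, 2182 and 2465 in euc1∆, 1374, 1350.1 and 1301 in the control and 1338, 1333 and 1336 in pGAL-EUC1. RPL20B (YOR312C, chromosome XV, 900250 to 901194, minus strand) had 2378, 2385 and 2472 TPM in WT, 2530.0, 2332 and 2407 in euc1∆, 1697, 1666 and 1606 in the control and 1631, 1669.9 and 1718 in pGAL-EUC1. For RPL20 the copies were near equal in the glucose samples and copy B led in the galactose samples. Strain background and experiment differ along with the medium between these samples. RPL43, a zinc-binding protein, had copy A in front in 11 of 12 samples, by a mean of 1.13-fold. RPL43A (YPR043W, chromosome XVI, 654166 to 654847, plus strand) had 5938, 5034 and 4701 TPM in WT, 4436, 5935 and 5889.8 in euc1∆, 2769, 2827 and 2775 in the control and 2653, 2895 and 2683 in pGAL-EUC1. RPL43B (YJR094W-A, chromosome X, 608305 to 608858, plus strand) had 5109, 4597 and 4599 TPM in WT, 3774, 4532 and 3763 in euc1∆, 2564, 2833 and 2762 in the control and 2491, 2797 and 2267 in pGAL-EUC1. The RPL43 copies were nearly level in the control, and the widest gap was in the third euc1∆ sample.

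The other pairs are given by the means of WT and the control, the groups furthest apart in the sums (± SD, n = 3). At the exit of the tunnel for nascent chains, RPL17A (YKL180W) averaged 2612 ± 140.0 TPM in WT and 1708 ± 53.5 in the control, and RPL17B (YJL177W) averaged 1672 ± 53.1 and 1164 ± 33.1 TPM in the same groups. RPL26A (YLR344W) averaged 1671 ± 97.7 TPM in WT and 1038 ± 34.3 in the control, and RPL26B (YGR034W) averaged 2819.9 ± 131 and 1727 ± 42.5 TPM in the same groups. Copy A led in RPL17 and copy B in RPL26 in all 12 samples. RPL31A (YDL075W) averaged 4205 ± 200.3 TPM in WT and 2665 ± 35.1 in the control, and RPL31B (YLR406C) averaged 1670.3 ± 169 and 1207 ± 50.6 TPM in the same groups. RPL35A (YDL191W) averaged 3251 ± 183 TPM in WT and 2408 ± 7.22 in the control, and RPL35B (YDL136W) averaged 2202 ± 162 and 1126 ± 91.8 TPM in the same groups. Copy A led in RPL31 and RPL35, again in all 12 samples. On the mobile stalk that follows the departing tRNA, RPL1A (YPL220W) averaged 2043 ± 113 TPM in WT and 1095 ± 22.1 in the control, and RPL1B (YGL135W) averaged 2814 ± 74.7 and 1643 ± 28.2 TPM in the same groups. At the base of the stalk of acidic proteins, RPL12A (YEL054C) averaged 1767 ± 147 TPM in WT and 1013 ± 19.9 in the control, and RPL12B (YDR418W) averaged 2113 ± 73.4 and 1135 ± 14.7 TPM in the same groups. In both stalk pairs copy B led. In the central protuberance, RPL11A (YPR102C) averaged 2399 ± 199 TPM in WT and 1246 ± 48.2 in the control, and RPL11B (YGR085C) averaged 1793 ± 43.4 and 1272 ± 57.1 TPM in the same groups. Copy A of RPL11 led in 8 of the 12 samples.

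Among proteins that reach over to the small subunit, RPL19A (YBR084C-A) averaged 2087 ± 50.5 TPM in WT and 1398 ± 42.2 in the control, and RPL19B (YBL027W) averaged 3011 ± 127 and 1785 ± 30.5 TPM in the same groups. RPL23A (YBL087C) averaged 2044 ± 81.6 TPM in WT and 1272 ± 46.2 in the control, and RPL23B (YER117W) averaged 4335 ± 599.9 and 2339 ± 109 TPM in the same groups. Copy B led in both, and the share of A was a little higher in the control. Among zinc-binding proteins, RPL37A (YLR185W) averaged 2474 ± 28.1 TPM in WT and 1516 ± 45.3 in the control, and RPL37B (YDR500C) averaged 3153 ± 284 and 2203 ± 36.1 TPM in the same groups. RPL42A (YNL162W) averaged 3035 ± 351 TPM in WT and 1795 ± 48.7 in the control, and RPL42B (YHR141C) averaged 4902 ± 1033 and 2566 ± 132 TPM in the same groups. The site where cycloheximide binds is next to RPL42. The remaining pairs had levels of the same order. RPL6A (YML073C) averaged 2229.9 ± 141 TPM in WT and 1292 ± 34.8 in the control, and RPL6B (YLR448W) averaged 1585 ± 151 and 880.4 ± 46.8 TPM in the same groups. RPL13A (YDL082W) averaged 1214 ± 63.0 TPM in WT and 794 ± 22.4 in the control, and RPL13B (YMR142C) averaged 2424 ± 120.3 and 1526 ± 8.70 TPM in the same groups. RPL16A (YIL133C) averaged 1852 ± 164 TPM in WT and 964 ± 42.6 in the control, and RPL16B (YNL069C) averaged 2691 ± 170.2 and 1687 ± 67.1 TPM in the same groups. The RPL16 copies, although their proteins are among the least alike, kept their order in all samples. RPL21A (YBR191W) averaged 3034 ± 102 TPM in WT and 1738 ± 27.7 in the control, and RPL21B (YPL079W) averaged 2105 ± 22.4 and 1231 ± 27.4 TPM in the same groups. RPL33A (YPL143W) averaged 2302 ± 232 TPM in WT and 1303 ± 77.3 in the control, and RPL33B (YOR234C) averaged 1667 ± 48.1 and 1181 ± 48.2 TPM in the same groups. In RPL21 and RPL33 copy A led in all samples. RPL34A (YER056C-A) averaged 1919.8 ± 68.3 TPM in WT and 1202 ± 41.2 in the control, and RPL34B (YIL052C) averaged 2599 ± 209.7 and 1451 ± 7.91 TPM in the same groups. RPL36A (YMR194W) averaged 1483 ± 145 TPM in WT and 892 ± 32.6 in the control, and RPL36B (YPL249C-A) averaged 3526 ± 165 and 2438 ± 77.0 TPM in the same groups. In RPL34 and RPL36 copy B did. Every copy of these pairs had a lower mean in the control than in WT.

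**Figure D2:**
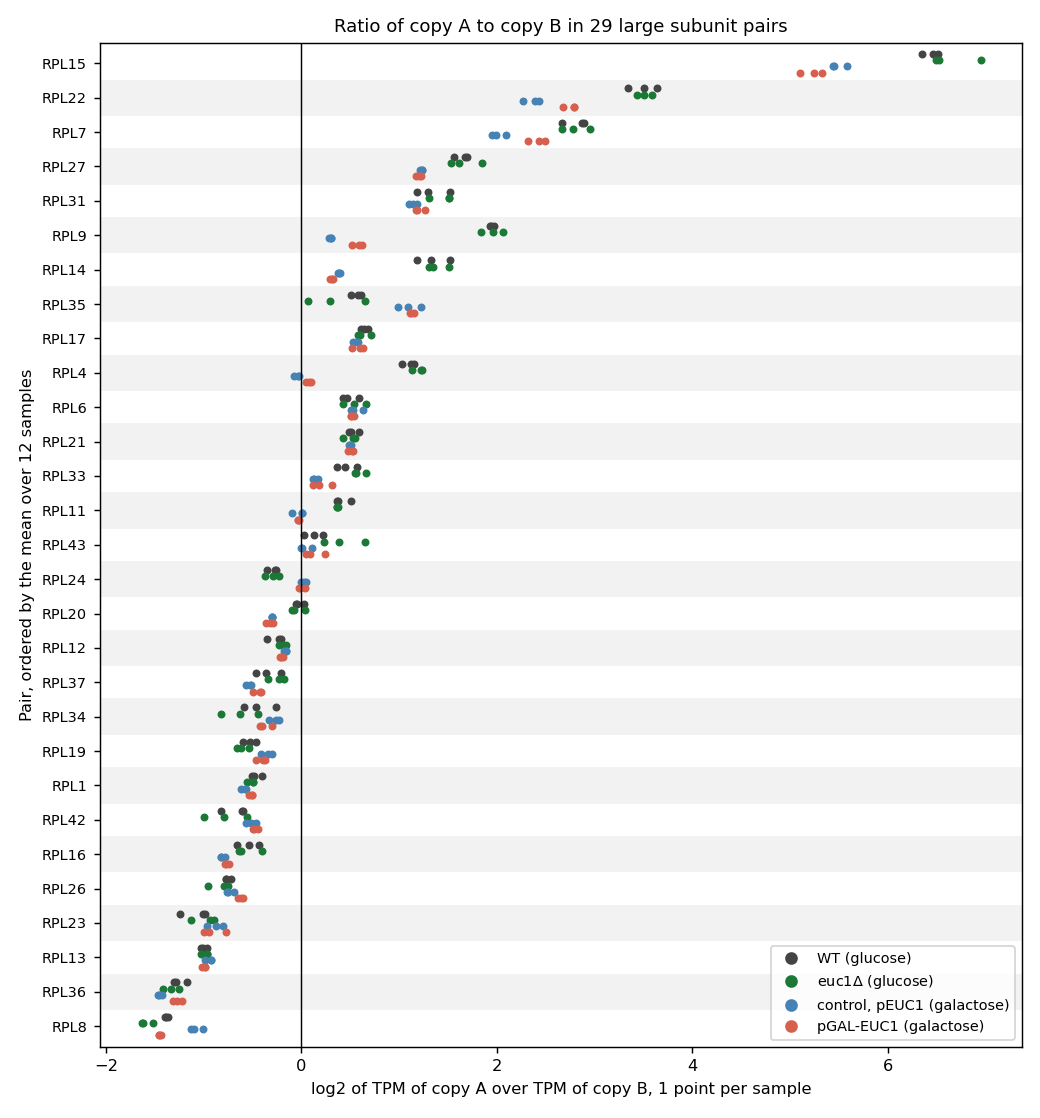
Log2 ratio of copy A to copy B (x axis) in 29 pairs (y axis, ordered by their mean over the 12 samples), with 1 point per sample coloured by group. The means run from 5.95 in RPL15 to -1.38 in RPL8, and the glucose and galactose samples stand well apart in RPL9, RPL4 and RPL14. Strain background and experiment differ along with the medium.

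Over the pairs, the median absolute log2 ratio was 0.66 in WT, 0.71 in euc1∆ and 0.55 in both the control and pGAL-EUC1, and the pairs with more than a 2-fold difference between copies numbered 12, 11, 9 and 9. In the small subunit pairs, the same medians were 0.48, 0.44, 0.58 and 0.60. The 9 pairs with the same protein had a median absolute ratio of 0.52, the 21 others of 0.74, and over the 30 pairs the ratio had a Pearson's r of 0.05 and a Spearman's rho of -0.19 with the share of windows found nowhere else. These points share the 12 libraries and the correlation is given as a description.

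The deletion experiment compares these genes with and without EUC1. No member passed the test in euc1∆ against WT (limma on log2(TPM + 1), Benjamini-Hochberg adjustment over 6217 genes, call at an adjusted p under 0.1). Among all genes, 0.0161% were called higher and 0.0161% lower, which is 1 gene in each direction. The member log2 fold changes ranged from -0.27 to 0.25 with a median of -0.01, beside 0.01 over all genes, and 29 were positive and 31 negative. At an unadjusted p under 0.05, 2 members were higher and 5 lower, against 154 and 315 of all genes. Of the sums of A and B, 0 of 30 passed, where 0.0162% of all rows were called in each direction (lowest adjusted p 0.594, limma). With all 12 samples in a single fit, 1 member was called, RPL8B (adjusted p = 0.0823). The unadjusted p of 3 pair sums was under 0.05, for RPL8 (0.17), RPL4 (0.22) and RPL26 (-0.19, all on the log2 scale). Of all 6187 rows in that fit, 154 were higher and 311 lower at the same threshold.

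The 6 members with the smallest p are given by sample, none of them past the test. RPL8B (YLL045C, chromosome XII, 47859 to 48629, minus strand), a protein of the early-assembling part of the subunit, had 2726, 2544 and 2777 TPM in WT and 2943, 3241 and 3225 in euc1∆ (log2 fold change 0.23, SE 0.069, adjusted p = 0.51, limma). RPL4A (YBR031W, chromosome II, 300166 to 301254, plus strand), whose protein reaches into the exit tunnel of the nascent chain, had 2201, 2177 and 2635 TPM in WT and 2696, 2709 and 2896 in euc1∆ (log2 fold change 0.25, SE 0.087, adjusted p = 0.551). In both, every euc1∆ sample was above every WT sample. RPL33B (YOR234C, chromosome XV, 778555 to 779405, minus strand) had 1719.8, 1654 and 1626 TPM in WT and 1512, 1463 and 1405 in euc1∆ (log2 fold change -0.19, SE 0.061, adjusted p = 0.53). The difference of RPL43B, with its values given above, was -0.25 on the log2 scale (SE 0.091, adjusted p = 0.589). RPL35A (YDL191W, chromosome IV, 117664 to 118517, plus strand), at the tunnel exit, had 3357, 3356 and 3039 TPM in WT and 3003, 2314 and 2811 in euc1∆ (log2 fold change -0.27, SE 0.10, adjusted p = 0.589). RPL34A (YER056C-A, chromosome V, 269423 to 270185, minus strand) had 1864, 1899.8 and 1996 TPM in WT and 1800.4, 1343 and 1652 in euc1∆ (log2 fold change -0.27, SE 0.11, adjusted p = 0.591). In these 4, every euc1∆ sample was below every WT sample, and the second euc1∆ sample was lowest in RPL35A and RPL34A. A relation of the fold change with gene length runs through this comparison. Over all genes the log2 fold change had a Pearson's r of 0.339 with log length, and the 2229 other genes as short as the members (267 to 1089 coding bases) had a median of -0.05 against 0.05 for longer genes. After a correction for length and GC content, the log2 fold changes of RPL8B, RPL4A, RPL33B, RPL43B, RPL35A and RPL34A were 0.23, 0.21, -0.079, -0.12, -0.17 and -0.18.

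The overexpression experiment compares EUC1 at a high level with EUC1 under its own promoter. With pGAL-EUC1, 14 of the 60 members fell and none rose against the control (limma, adjusted p under 0.1), where 4.42% of all 6332 genes were called lower and 16% higher. The other 46 did not pass. The member log2 fold changes ranged from -0.50 to 0.08 with a median of -0.06, beside 0.08 over all genes, and 48 of 60 were negative. When the samples were rescaled by the median of ratios, which brings the median of all genes from 0.08 to 0.01, 24 members were called lower and none higher, beside 8.31% and 4.55% of all genes. Of the 14 falls, 10 were of 0.10 to 0.19 on the log2 scale and 4 were larger. Both copies fell in 3 pairs, among them RPL9 and RPL22, a single copy in 8 pairs (RPL4B, RPL7B, RPL8A, RPL14A, RPL15A, RPL26B, RPL31B and RPL36B) and neither in 19. A call of a single copy does not test whether the copies differ. In RPL31, copy A had a log2 fold change of -0.11 without passing, beside -0.17 of RPL31B. The count was 7 without control replicate 1, 5 without control replicate 2, 4 without pGAL-EUC1 replicate 1, 18 without pGAL-EUC1 replicate 2 and 7 without pGAL-EUC1 replicate 3. It was 5 with all 12 samples in a single fit, 9 after a correction for length and GC content, and 8 without a trend in the prior variance. RPL22B, RPL9B, RPL7B and RPL8A passed in each of the 6 fits without a library. Their partners RPL9A and RPL22A, which make RPL9 and RPL22 pairs with both copies called, each passed in 1 of the 6. RPL4B, RPL14A and RPL36B also passed in 1 of the 6, and RPL26B and RPL31B in 2.

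RPL22B had the largest fall, from 295, 267 and 274 TPM in the control to 202, 195 and 193 TPM in pGAL-EUC1 (log2 fold change -0.50, SE 0.046, adjusted p = 0.00214, limma). Its partner RPL22A fell by 0.12 on the log2 scale (adjusted p = 0.0577). RPL9B (YNL067W, chromosome XIV, 499681 to 500256, plus strand), a protein at the base of the stalk that recruits translation factors, went from 995, 976 and 924 to 719, 697 and 756 TPM (log2 fold change -0.41, SE 0.045, adjusted p = 0.00361), and RPL9A (YGL147C, chromosome VII, 227754 to 228329, minus strand) from 1229, 1202 and 1127 to 1084, 1072 and 1083 TPM (log2 fold change -0.13, SE 0.039, adjusted p = 0.0688). In both pairs the less abundant copy had the larger fold change. RPL7B fell, from 389.8, 388 and 351 to 299.8, 272 and 289 TPM (log2 fold change -0.39, SE 0.055, adjusted p = 0.00918), while RPL7A did not pass (log2 fold change 0.013, SE 0.034, adjusted p = 0.813). RPL8A (YHL033C, chromosome VIII, 35255 to 36025, minus strand) went from 724, 688 and 675 to 529, 527 and 545 TPM (log2 fold change -0.38, SE 0.038, adjusted p = 0.00281), while RPL8B stood at 1453, 1503 and 1449.9 TPM in the control and 1434, 1445 and 1493 in pGAL-EUC1 (log2 fold change -0.011, SE 0.033, adjusted p = 0.85). In RPL7 and RPL8 only the less abundant copy passed the test. RPL15 went the other way, with the abundant RPL15A falling (log2 fold change -0.19, SE 0.033, adjusted p = 0.0191) and the scarce RPL15B not passing (log2 fold change 0.077, SE 0.073, adjusted p = 0.493). RPL15A lost its call without pGAL-EUC1 replicate 1 (adjusted p = 0.104).

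The smaller falls reached down to -0.10 (RPL14A), with RPL31B at -0.17 on the log2 scale. Copies were also split by their abundance in WT, a group outside this comparison. Of the 30 less abundant copies, 7 fell, with a median log2 fold change of -0.07 and a range of -0.50 to 0.08, and of the 30 more abundant ones 7 fell, with a median of -0.05 and a range of -0.19 to 0.05. The count was thus the same in both sets, while the 4 largest falls were all in less abundant copies. The Rap1 motif was present in 6 of the 14 members that fell, beside 29 of all 60, and RPL22B, RPL8A, RPL9A and RPL14A, printed above, are among the 6.

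Among the sums of A and B, 6 of 30 fell and none rose, where 4.3% of all rows were called lower and 16% higher. Among them were RPL9 (-0.25, adjusted p = 0.0128, from 2151 to 1803 TPM), RPL15 (-0.18, 0.0211), RPL22 (-0.17, 0.0191), RPL31 (-0.13, 0.0938) and RPL8 (-0.12, 0.0527), each on the log2 scale with limma's adjusted p. The median over the 30 sums was -0.07. The sum of RPL7 did not pass (-0.058, adjusted p = 0.269), although RPL7B did. The count was 15 after rescaling by the median of ratios, 3 without control replicate 2, 1 without pGAL-EUC1 replicate 1, 13 without pGAL-EUC1 replicate 2, 4 without control replicate 1 and 2 with all 12 samples in a single fit.

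**Figure D3:**
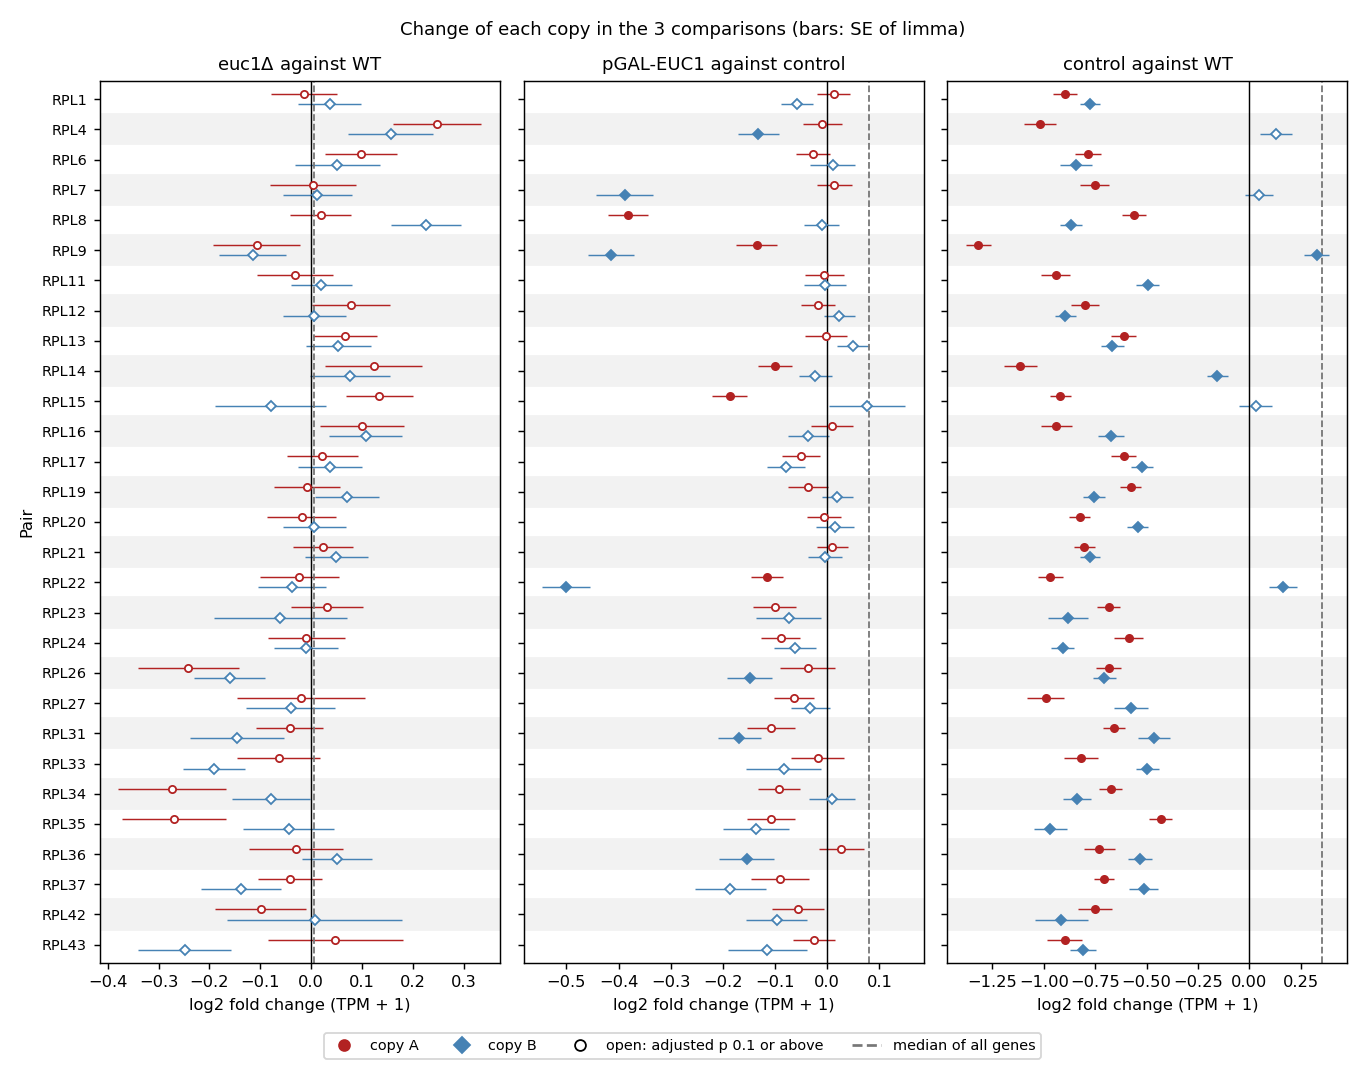
Log2 fold changes on the log2(TPM + 1) scale of copy A and copy B of 29 pairs in the 3 comparisons, with bars for the SE of limma, filled points for an adjusted p under 0.1 and a dashed line at the median of all genes. Values of euc1∆ against WT lie between -0.27 and 0.25, those of pGAL-EUC1 against the control between -0.50 and 0.08, and those of the control against WT between -1.32 and 0.33.

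The balance of the copies was compared by the share of A in A + B. It did not overlap between pGAL-EUC1 and the control in 12 of 30 pairs (40%), beside 20.8% of the 24 small subunit pairs, and in 8 of the 12 the share of A was higher with pGAL-EUC1. The largest shifts were in RPL8, from 33.3, 31.4 and 31.8% in the control to 26.9, 26.7 and 26.7% in pGAL-EUC1, in RPL9, from 55.3, 55.2 and 54.9% to 60.1, 60.6 and 58.9%, and in RPL7, from 80.0, 79.5 and 81.0% to 83.3, 84.9 and 84.4%. RPL22 went from 82.8, 84.3 and 84.0% to 86.5, 87.3 and 87.3%. RPL8 is the only pair of these 4 in which copy A lost share. The other 8 pairs differed by less than 3 percentage points between the group means. The exact permutation p of each was 0.1, the smallest possible. In euc1∆ against WT, 2 of 30 pairs (6.67%) did not overlap, beside 8.33% of the small subunit pairs: RPL43 with 53.8, 52.3 and 50.5% in WT and 54.0, 56.7 and 61.0% in euc1∆, and RPL8 with 27.5, 27.9 and 27.6% and 25.9, 24.5 and 24.4%. Without a library, this count was 8 (WT replicate 1), 4 (WT replicate 2 or 3), 10 (euc1∆ replicate 1), 4 (euc1∆ replicate 2) or 3 (euc1∆ replicate 3), as fewer values overlap less easily. RPL8 was the only pair of the 30 that did not overlap in both experiments, and its share of A was lower both without EUC1 and with EUC1 overexpressed. A separation of 3 samples from 3 has an exact permutation p of 0.1 by itself, and no adjustment over the pairs was made. Whether a single such pair exceeds what chance gives was not tested. Among the 24 small subunit pairs, RPS9 and RPS14 also failed to overlap in both experiments. The share of A in RPS14 was higher in both, and in RPS9 it was higher without EUC1 and lower with EUC1 overexpressed.

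In the deletion experiment RPL8A did not pass, with 1035, 985 and 1061 TPM in WT and 1029, 1052 and 1039 in euc1∆ (log2 fold change 0.019, SE 0.06, adjusted p = 0.973, limma), and the lower share came with the higher values of RPL8B, which did not pass the test. In the overexpression experiment it came with the fall of RPL8A.

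**Figure D4:**
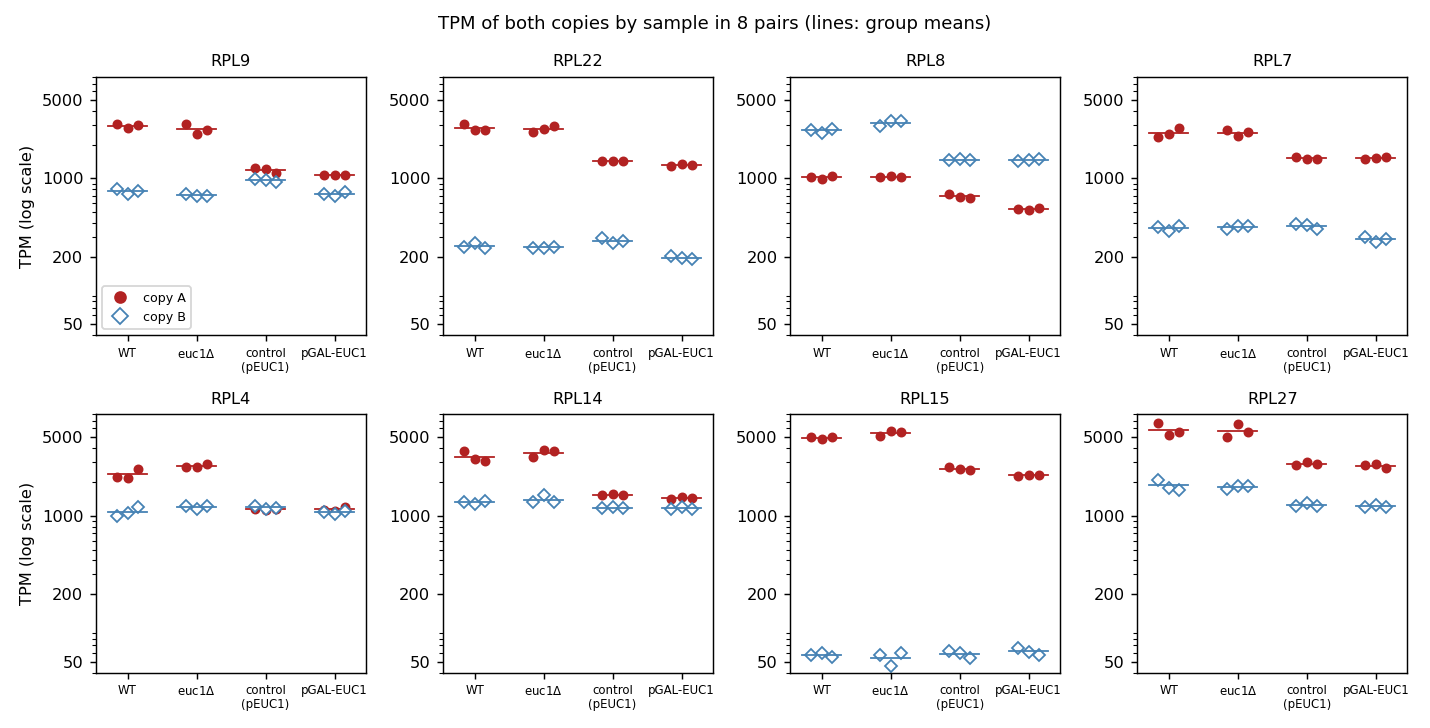
TPM of copy A and copy B in each of the 12 samples, by group, on a log axis, for 8 pairs described in the text, with lines at the group means. RPL8A stands at 675 to 724 TPM in the control and at 527 to 545 TPM in pGAL-EUC1, and RPL9B at 924 to 995 and 697 to 756 TPM.

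To set all 4 groups side by side, the control was also compared with WT. Strain background, medium, EUC1 locus, integrated plasmid (with MED11 in WT only) and experiment all differ between these groups and their parts cannot be told apart. The control samples serve also in the comparison with pGAL-EUC1, and the WT samples in that with euc1∆. Of the 60 members, 55 fell in the control, 2 rose and 3 did not pass (limma, adjusted p under 0.1), where 13.3% of all 6324 genes were called lower and 57.8% higher. The median member log2 fold change was -0.72, beside 0.36 over all genes, a shift of the whole table. After rescaling by the median of ratios, which brings the median of all genes to 0, the member median was -1.09, 59 members were lower and none higher, and 34% of all genes were called lower and 34.8% higher. All 30 sums of A and B fell (12.9% of all rows called lower, 58% higher), between -0.90 and -0.55 on the log2 scale with a median of -0.76. Both copies passed in 27 pairs and a single copy in RPL4, RPL7 and RPL15.

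The 5 largest falls were in copy A. The next was in copy B, RPL35B with -0.967 on the log2 scale, beside -0.969 of RPL22A. RPL9A went from 3086, 2793 and 3005 TPM in WT to 1229, 1202 and 1127 in the control (log2 fold change -1.32, SE 0.061, adjusted p = 5.82e-07, limma). RPL14A (YKL006W, chromosome XI, 431906 to 432720, plus strand) went from 3798, 3202 and 3086 to 1538, 1573 and 1524 TPM (log2 fold change -1.12, SE 0.08, adjusted p = 6.69e-06), and RPL4A from 2201, 2177 and 2635 to 1159.7, 1128 and 1161 TPM (log2 fold change -1.02, SE 0.079, adjusted p = 1.04e-05). RPL27A and RPL22A, with the values given above, had log2 fold changes of -0.99 and -0.97. In each of the 5 all control samples were below all WT samples. Copy B of RPL9 and RPL22 went the other way on this scale. RPL9B rose, from 812, 728 and 768 to 995, 976 and 924 TPM (log2 fold change 0.33, SE 0.062, adjusted p = 0.00183), and RPL22B rose (log2 fold change 0.16, SE 0.067, adjusted p = 0.0628), so that RPL9 and RPL22 are the pairs whose copies were called in opposite directions. The rises depend on the scale, being -0.048 (adjusted p = 0.683) for RPL9B and -0.21 (adjusted p = 0.0438) for RPL22B after rescaling by the median of ratios. RPL22B also lost its call without WT replicate 1 (adjusted p = 0.102), WT replicate 3 (0.131), control replicate 1 (0.214) or control replicate 3 (0.108), with the replicate block (0.121) and without trend (0.109). RPL4B (YDR012W, chromosome IV, 471853 to 472941, plus strand), with 987, 1066 and 1209.6 TPM in WT, 1231, 1161 and 1234 in euc1∆, 1225, 1159 and 1177 in the control and 1090.5, 1046 and 1114 in pGAL-EUC1, did not pass (log2 fold change 0.13, SE 0.078, adjusted p = 0.174), nor did RPL7B (log2 fold change 0.045, adjusted p = 0.58) and RPL15B (0.03, adjusted p = 0.754). RPL4B passed without WT replicate 3 (log2 fold change 0.21, adjusted p = 0.0156). After the rescaling RPL4B, RPL7B and RPL15B had -0.24, -0.33 and -0.34.

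The difference between copies does not depend on the scale of the table, since both are read in the same sample. The share of A did not overlap between the control and WT in 23 of 30 pairs (76.7%), beside 54.2% of the small subunit pairs, and was lower in the control in 16 of the 23. RPL9 had 79.2, 79.3 and 79.6% in WT and 55.3, 55.2 and 54.9% in the control, RPL4 had 69.0, 67.1 and 68.5% and 48.6, 49.3 and 49.6%, and RPL14 had 74.2, 71.5 and 69.4% and 56.9, 56.6 and 56.5%. Copy A thus made up the bulk of these pairs in WT, and in the control it was near the level of copy B in RPL4 and still above it in RPL9 and RPL14. RPL35 moved the other way, from 58.7, 60.3 and 59.9% to 66.5, 68.0 and 70.0%, as did RPL24, from a mean of 44.9% to 50.4%. Of the 30 pairs, 23 were closer to equal in the control than in WT, beside 10 of the 24 small subunit pairs. RPL4 and RPL35 are among the pairs with few windows of their own. Among the 26 pairs in which at least 50% of the windows of both copies were found nowhere else, the share of A did not overlap in 19.

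Copies were also split by their abundance in euc1∆, which shares strain background, medium and experiment with WT. Copy A was the more abundant in 16 pairs in both groups, so this split is close to a split in WT and not independent of it. The 30 more abundant copies all fell, with a median log2 fold change of -0.81. Of the 30 less abundant ones, 25 fell and 2 rose, with a median of -0.60. The A copies summed to 80425 TPM in WT and 45960 TPM in the control, 0.572 times as much, and the B copies to 66270 and 41742 TPM, 0.63 times as much. In euc1∆ the sums were 80159 TPM for A and 65545 TPM for B, and in pGAL-EUC1 43906 and 39553 TPM.

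Other genes of the ribosome were read from lists beside the members, where 4.42% of all genes were called lower with pGAL-EUC1 and 13.3% in the control against WT. Of the 10 large subunit genes without a second copy, 3 fell with pGAL-EUC1, RPL3 (-0.15), a protein next to the peptidyl transferase centre, RPL30 (-0.21), which represses the splicing of its own transcript, and RPL28 (-0.13), and 9 fell in the control against WT. Their medians were -0.12 and -0.58. Of 9 other large subunit genes that were tested (RPL2A, RPL2B, RPL40A, RPL40B, RPP0 and 4 acidic stalk protein genes), 3 fell with pGAL-EUC1, all of them acidic stalk proteins, RPP2A (-0.27), RPP2B (-0.10) and RPP1B (-0.13), and 9 in the control against WT. Of the 48 small subunit pair genes, 5 fell with pGAL-EUC1 (among them RPS9A with -0.36 and RPS22B with -0.28), and in the control against WT 47 fell and 1 rose. No gene of these lists rose with pGAL-EUC1 or passed in euc1∆.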

How the data were processed

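PolyA RNA of 12 yeast cultures was sequenced, and the authors deposited TPM values (RSEM 1.3.0 after STAR 2.6.0a, R64 annotation), which keep no depth, so no counting interval is given. Column names stood 1 cell left of their values, and EUC1 levels follow the labels. Each comparison was fitted by itself, over all genes averaging 1 TPM or more in its samples, with limma 3.58.1 (R 4.3.3) on log2(TPM + 1) with a trend in the prior variance and two-sided Benjamini-Hochberg adjusted p-values, and called at an adjusted p under 0.1. Fold changes are on that log2 scale, which understates changes of low genes. The same fit was run with each pair replaced by its sum. Shares and sums were compared by exact permutation over samples. The procedure was tested on simulated data. Sequences, introns, promoters and 75-base windows came from the R64 genome and RefSeq annotation (Python 3.11.15, Biopython 1.88), where 5903 of 6825 identifiers and all 60 members matched. Overlaps with the 922 other identifiers were not checked, and the strand setting of the counting was not given in the sources used here.

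Members and lists were chosen with earlier results of these data known. Given by sample were the 5 most uneven and 3 most even pairs, the 6 smallest p-values of the deletion, the 6 largest called falls (no member rose) with pGAL-EUC1, the 5 largest rises and falls in the control against WT, and pairs called in opposite directions or not overlapping in both experiments. Tried besides were pseudocounts of 0.1 and 5, a filter at 10 TPM and none, median-of-ratios rescaling, a correction for length and GC content, a joint fit of all 12 samples, no trend, a replicate block, and fits lacking each sample in turn. The results of 1 pair are not reported singly here. Microarrays and ChIP data of the study were not used here.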

Additional observations from a re-analysis of the deposited data

How the results depend on the processing

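Read depth is unknown, and the 60 members rest on 3 samples a group. In euc1∆ against WT the number of called members was 1 (RPL8B, adjusted p = 0.0823, limma) with all 12 samples in a single fit and 0 in every other alternative, and the pairs whose share of A did not overlap numbered 1 after the correction for length and GC content and 3 to 10 without a library. With pGAL-EUC1 the called members, 14 in the main analysis, numbered 24 after rescaling by the median of ratios. After the correction for length and GC content they numbered 9, also when this correction was combined with the replicate block. They numbered 5 in the fit of all 12 samples, 8 without trend and 4 to 18 without a library. The called sums of pairs, 6 in the main analysis, numbered 15 after the rescaling, 2 in the fit of all 12 samples and 1 to 13 without a library. After the rescaling the members summed to 170167 (WT), 168011 (euc1∆), 78051 (control) and 69853 (pGAL-EUC1). The median log2 ratio of A to B in euc1∆ was 0.27 to 0.40 without a library. In the control against WT the rescaling reversed RPL15B (-0.34), RPL7B (-0.33), RPL4B (-0.24), RPL22B (-0.21) and RPL9B (-0.048), the correction for length and GC content, with or without the block, reversed RPL15B (-0.0040) and RPL4B (-0.094), and RPL15B ranged from -0.015 (without control replicate 1) to 0.093 (without control replicate 3). Same-numbered samples did not deviate together (correlations -0.107 to 0.189), so the numbers were not taken to pair them. With the replicate number as a block, 0, 14 and 56 members were called in the 3 comparisons.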

Other observations

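Genes that act on ribosomal protein genes or proteins were read beside the members, from 2 lists. Of 9 regulators of ribosomal protein transcription, 3 rose with pGAL-EUC1 (limma, adjusted p under 0.1), where 16% of all genes were called higher: HMO1, an HMG-box protein found at ribosomal protein promoters (log2 fold change 0.15, adjusted p = 0.0579), IFH1, the coactivator (0.14, adjusted p = 0.0894), and CRF1, a corepressor that competes with Ifh1 (0.22, adjusted p = 0.097). After rescaling by the median of ratios none of the 3 passed (adjusted p = 0.303, 0.434 and 0.256). The median of the list was 0.14, beside 0.08 over all genes, and 0.06 after the rescaling.

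In the control against WT, CRF1 (0.97), the kinase gene SCH9 (0.80), ABF1 (0.36) and TOR1 (0.31) rose, where 57.8% of all genes were called higher and the median of all genes was 0.36, and IFH1 fell (-0.19, adjusted p = 0.0807). After the rescaling CRF1 (0.63) and SCH9 (0.43) still rose, ABF1 had -0.010 (adjusted p = 0.926) and TOR1 -0.030 (adjusted p = 0.798), and IFH1 had -0.56. The list's median of 0.13 was -0.23 after the rescaling. No regulator passed in euc1∆.

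Of 5 chaperones dedicated to ribosomal proteins, 3 rose with pGAL-EUC1, where 16% of all genes were called higher: BCP1 (0.29, adjusted p = 0.0391), SQT1 (0.21, adjusted p = 0.0521) and ACL4, the chaperone of the RPL4 protein (0.25, adjusted p = 0.0836). After the rescaling BCP1 passed (0.22, adjusted p = 0.0982), SQT1 and ACL4 did not (adjusted p = 0.188 and 0.218), and the list's median went from 0.21 to 0.13. RPL4B fell in the same samples (-0.13, adjusted p = 0.0685, limma). RPL4A (-0.0095, adjusted p = 0.878) and the sum of RPL4 (-0.070, adjusted p = 0.226) did not pass. A relation with ACL4 was not tested. In the control against WT, BCP1 (-0.67), ACL4 (-0.45) and RRB1 (-0.23) fell, where 13.3% of all genes were called lower. No chaperone passed in euc1∆.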
